A study of Mus musculus with 6 samples.

Results

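Expression of 10 genes of the LIF and IL-6 cytokine family, among 23366 genes listed, was followed in SC4 cells after knockdown of YAP. The 10 genes are the ligand genes Lif, Clcf1, Il11, Il6 and Ctf1, the receptor genes Il6st, Lifr and Osmr, the transcription factor gene Stat3 and the feedback inhibitor gene Socs3. They were taken by symbol, and all 10 were found. The set was chosen by values of the same comparison, control siRNA against YAP siRNA, so the differences of these 10 genes are given as a description with no test. SC4 is a single mouse cell line from a schwannoma, a nerve sheath tumour, without Nf2; that gene encodes the tumour suppressor merlin, and both groups share its loss. One group received a control siRNA and the other a pool of siRNAs against YAP (YAP Smartpool), each by lipid transfection, with RNA extraction at 48 hours. There were 3 libraries a group, with the replicate numbers 1, 2 and 3. Whether these were separate cultures is not stated in the labels. A p-value from a fit here rests only on the spread between these libraries. In fits that carry the replicate number, it rests on the spread of the differences within a number. Either spread may be technical.

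Most cytokines of this family act through receptor complexes that share the chain gp130, the product of Il6st. LIF and cardiotrophin 1 (Ctf1) signal through gp130 paired with the LIF receptor, whereas IL-6 and IL-11 first bind receptors of their own and then a pair of gp130 chains. JAK kinases bound to these receptors phosphorylate STAT3, which moves to the nucleus and induces, among other genes, Socs3, whose product binds gp130 and shuts the signal off. In peripheral nerve, Schwann cells are a known source of LIF and IL-6 after injury.

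The knockdown was visible in its target. Yap1 had 4750, 5732 and 4751 normalized counts in control replicates 1, 2 and 3, and 936, 571 and 475 after YAP siRNA, a log2 fold change of −3.00 (SE 0.267; exact permutation test, two-sided, p = 0.1, the lowest value possible with 3 libraries a group). Normalized counts are reads per gene after division by the size factor of the library. Libraries held between 18025132 and 60078880 reads in genes, and 1 read was worth between 0.461 and 1.52 normalized counts. Fold changes are differences of log2(normalized count + 1), YAP siRNA minus control. Across 12820 genes with a mean of at least 10 normalized counts, limma called 0% at an adjusted p under 0.05 (0 genes; 1558 at an unadjusted p under 0.05, 0 by edgeR and 722 by DESeq2). Replicate 1 of both groups stood apart: the chi-square of counts per degree of freedom was 34.5 between control replicates 2 and 3 and 232 and 267 against replicate 1, and after YAP siRNA 8.04 against 174 and 136. When the fit carried the replicate number as a block, limma placed 8.32% of genes past the threshold as higher and 8.96% as lower; "rose" and "fell" are used below only for genes outside the 10 that passed in this fit, and none of them passed without the block in limma with all libraries. An adjusted p is called blocked or unblocked after these 2 fits. Each SE given is that of the unblocked fit in limma, also where a blocked adjusted p stands beside it.

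Markers of the lineage and of other cell types gave a mixed picture. Of 8 Schwann cell markers, 5 had a mean of at least 10 normalized counts: Ngfr, L1cam, Erbb3, Cdh19 and Foxd3. Sox10, a transcription factor gene of the lineage, had between 0 and 15.6 and Gfra3 was at 0 in all 6 libraries. Ngfr, which reached 4621 and makes up most of the summed level, fell (log2 fold change −0.80, blocked adjusted p in limma 0.00721), and Erbb3 rose (1.12, 0.0261). Of 9 fibroblast markers, 8 were tested, and 2 rose and 3 fell, beside 8.32% and 8.96% of all genes. Pdgfrb rose by 0.98 and Dpt by 1.53 on the log2 scale. Col1a1, Col3a1 and Dcn fell, with log2 fold changes of −0.46, −0.31 and −0.99. Their adjusted p in limma lay between 0.00602 and 0.0366 blocked and between 0.165 and 0.818 unblocked. Groups overlapped for all of these but Pdgfrb. Col1a1 and Col1a2, which reached 280123 and 223449, carry most of the summed fibroblast level. The sum of the 8 Schwann markers lay between 2566 and 5132 in the controls and between 1989 and 4108 after YAP siRNA, and summed fibroblast markers between 286966 and 581164 and between 238528 and 453494.

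Among the 5 ligand genes, Lif, Clcf1 and Il11 were lower on average after YAP siRNA by 1.45 to 1.77 on the log2 scale, and 2 of them, Lif and Clcf1, did not overlap between groups, as did 9.49% of all genes tested in the lower direction. Lif encodes leukaemia inhibitory factor, known for holding mouse embryonic stem cells undifferentiated and for its release by injured nerve. It had 674, 1369 and 1240.4 normalized counts in control replicates 1, 2 and 3 and 270.5, 325 and 322.5 after YAP siRNA. The lowest control library was thus above all 3 YAP siRNA libraries, which lay close together, while the controls were spread with replicate 1 lowest. The mean went from 1094 ± 370 to 306 ± 30.8 (SD, n = 3), 28.0% of the control, with a log2 fold change of −1.77 (SE 0.297). In these bulk samples, fewer cells that make a transcript and less of it per cell cannot be told apart.

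The promoter sequence of Lif is shown because the groups of this ligand gene did not overlap. It is the 250 bases before the annotated start in RefSeq, chr11:4257318-4257567 of GRCm38.p6, plus strand, 5′ to 3′; the deposited counts were made on mm9, and the sequence was matched by symbol. Capitals mark matches, on either strand, to 5 motifs: the STAT site TTCNNNGAA, the TEAD motif GGAATG (YAP acts through TEAD factors), the AP-1 motif TGANTCA, the cyclic AMP response element TGACGTCA and an NF-kappaB motif of 10 bases. No 2 matches in the printed sequences overlap.
Lif: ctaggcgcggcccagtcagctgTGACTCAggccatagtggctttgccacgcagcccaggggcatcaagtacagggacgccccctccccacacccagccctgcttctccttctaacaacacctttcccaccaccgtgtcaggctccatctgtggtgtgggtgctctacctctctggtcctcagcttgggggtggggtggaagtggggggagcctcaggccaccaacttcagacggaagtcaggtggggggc
The capitals in Lif are 1 AP-1 match that begins at −228 from the start. A match is a run of letters and does not show binding.

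Clcf1 encodes cardiotrophin-like cytokine factor 1 and is a ligand of the family that acts on nerve and immune cells. It had 495, 483 and 646 normalized counts in the controls and 267, 186 and 152 after YAP siRNA. Again all 3 control libraries were above all 3 YAP siRNA libraries, and here replicate 1 was not apart in the controls. The mean went from 541 ± 91.1 to 202 ± 59.0 (SD, n = 3), a log2 fold change of −1.45 (SE 0.269). In GENCODE M21, whose models need not be those of the authors, 1 other gene overlaps exons of Clcf1 on the same strand.

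Il11 encodes interleukin 11, a cytokine that signals through gp130 and is linked to fibrosis. It had 10.6, 75.6 and 59.9 normalized counts in control replicates 1, 2 and 3, and 10.8, 8.07 and 13.6 after YAP siRNA. The groups overlapped, because control replicate 1 was at the level of the YAP siRNA libraries. These values stand for 7, 97 and 130 reads in the controls and 9, 8 and 9 after YAP siRNA. The log2 fold change was −1.71 (SE 0.778), and −2.57 without replicate 1 of both groups. The promoter of Il11 is printed beside that of Lif because both hold an AP-1 match; it is the start at the lower coordinate of the 2 in the table, chr7:4778142-4778391 of GRCm38.p6, minus strand.
Il11: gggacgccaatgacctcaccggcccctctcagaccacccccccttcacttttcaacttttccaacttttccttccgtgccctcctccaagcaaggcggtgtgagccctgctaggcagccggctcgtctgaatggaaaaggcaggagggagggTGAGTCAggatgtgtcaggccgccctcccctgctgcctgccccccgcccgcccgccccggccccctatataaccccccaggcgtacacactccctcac
The capitals are the AP-1 match at −98. The window of the other Il11 start held none of the 5 motifs.

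The other ligand genes were near the limit of counting. Il6, the gene of the inflammatory cytokine interleukin 6, had 4.55, 16.4 and 25.3 normalized counts in the controls and 2.40, 9.08 and 7.54 after YAP siRNA, which are 3, 21 and 55 reads against 2, 9 and 5. The groups overlapped, and within each group replicate 1 was lowest. Its log2 fold change was −1.04 (SE 0.794). Ctf1, the gene of cardiotrophin 1, had between 1 and 5 reads in every library and normalized counts of 6.07, 2.34 and 0.461 in the controls and 6.01, 3.03 and 1.51 after YAP siRNA. It was the only one of the 10 genes with a mean under 10 normalized counts, and so was not among the genes fitted.

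**Figure D1:**
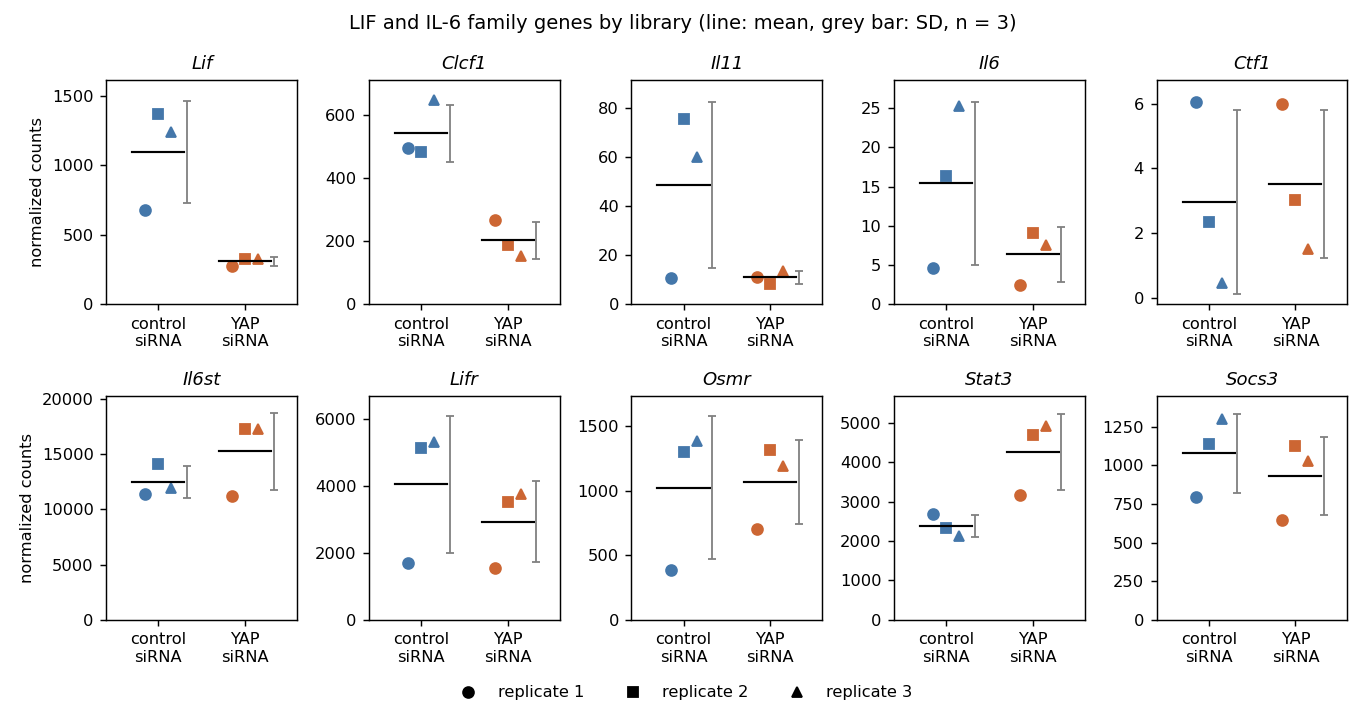
Normalized counts (vertical axes, each starting at or just below 0) of the 10 genes in each library, with control siRNA in blue, YAP siRNA in orange and 1 symbol per replicate number; black lines are group means and grey bars the SD (n = 3). Lif and Clcf1 are lower in all 3 YAP siRNA libraries than in any control and Stat3 is higher, while the groups of the other 7 genes overlap.

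Beside the ligand genes, the summed level of 9 macrophage and leukocyte markers was between 290 and 344 normalized counts in the controls and between 225 and 268 after YAP siRNA. The mean was at least 10 for 4 of the 9. Csf1r, a receptor gene of macrophages, had 120, 168 and 196 in the controls and 81.7, 62.6 and 84.4 after YAP siRNA, and it fell (blocked adjusted p in limma 0.0253). Without Csf1r the sums of the other 8 were 170.0, 176 and 147 in the controls and 145, 162 and 184 after YAP siRNA, and the groups overlapped. Cd68 had between 101 and 164 in all libraries, and Ptprc, the CD45 gene, had 0, 28.8 and 11.1 in the controls and 6.01, 29.3 and 13.6 after YAP siRNA. Tyrobp was at 0 in all 6 libraries, Itgam reached 1.56 and Emr1 0.461. The part of such cells in the ligand values was not tested. Endothelial markers summed to between 170 and 294 in the controls and to between 244 and 363 after YAP siRNA.

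The receptor genes differed less between the groups, and all 3 overlapped. Il6st, the gene of the shared chain gp130, had 11416, 14164 and 11903 normalized counts in the controls and 11218, 17333 and 17255 after YAP siRNA. Replicate 1 was at one level in both groups, and replicates 2 and 3 were higher after YAP siRNA. The log2 fold change was 0.27 (SE 0.208). Lifr, the gene of the LIF receptor, had 1690.4, 5134 and 5328 in the controls and 1536, 3509 and 3751 after YAP siRNA. Replicate 1 was far lower than replicates 2 and 3 in both groups, by 1.63 on the log2 scale in the controls and 1.24 after YAP siRNA. Its log2 fold change of −0.40 (SE 0.549) is smaller than that distance, although the value after YAP siRNA was the lower one within each replicate number.

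Osmr encodes the receptor chain that pairs with gp130 to bind oncostatin M. It had 387, 1301 and 1387 normalized counts in the controls and 702, 1318 and 1192 after YAP siRNA. Replicate 1 was again lowest in each group. The difference went both ways: 0.86 in replicate 1, 0.019 in replicate 2 and −0.22 in replicate 3. The log2 fold change over all libraries was 0.22 (SE 0.537) and turned to −0.0998 without replicate 1 of both groups.

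Stat3, the gene of the transcription factor that these receptors activate, was the 1 gene of the 10 that was higher in every YAP siRNA library than in any control. It had 2696, 2339 and 2120.0 normalized counts in the controls and 3168, 4695 and 4928 after YAP siRNA. The means were 2385 ± 291 and 4263 ± 956 (SD, n = 3), 179% of the control, with a log2 fold change of 0.82 (SE 0.208). The difference was smallest in replicate 1, and the log2 fold change was 1.11 without replicate 1 of both groups. An exon of Stat5a overlaps Stat3 on the other strand in GENCODE M21, and the strand setting of the counting is not given in the sources used here; Stat5a itself had between 7.59 and 73.7 normalized counts.

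Socs3, which encodes the inhibitor that STAT3 induces and that binds gp130, had 797, 1140.4 and 1299 normalized counts in the controls and 648, 1125 and 1029 after YAP siRNA. The groups overlapped and replicate 1 was lowest in each. The log2 fold change was −0.22 (SE 0.285), so Socs3 was not higher where Stat3 was. The promoters of both are shown because they differ in the motifs they hold, chr11:100939541-100939790 for Stat3 and chr11:117969367-117969616 for Socs3, both of GRCm38.p6 and on the minus strand.
Stat3: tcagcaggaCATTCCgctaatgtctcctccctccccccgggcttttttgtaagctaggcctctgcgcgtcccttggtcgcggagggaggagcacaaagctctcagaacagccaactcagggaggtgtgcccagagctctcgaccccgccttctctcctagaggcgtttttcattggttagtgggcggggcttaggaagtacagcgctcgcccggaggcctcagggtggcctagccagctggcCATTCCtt
Socs3: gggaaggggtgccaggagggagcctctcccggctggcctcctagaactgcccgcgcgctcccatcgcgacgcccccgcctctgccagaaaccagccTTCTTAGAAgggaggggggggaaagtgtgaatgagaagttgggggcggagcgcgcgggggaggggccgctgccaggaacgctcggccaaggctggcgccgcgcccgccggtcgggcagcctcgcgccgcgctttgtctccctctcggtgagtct
In Stat3 the capitals are TEAD matches, at −241 and −8, written as the other strand CATTCC. In Socs3 they are a STAT match at −154.

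Of the 10 genes, 9 had an entry in the RefSeq promoter table, with 11 windows in all, and Clcf1 had none. AP-1 matches stood in 3 of the 11 windows, those of Lif, Il6 and Il11, and in 6.75% of 32851 windows of the same length over all genes. The TEAD motif stood in 1 of the 11 and in 12.6% of all windows, the STAT site in 1 and in 7.02%, the NF-kappaB motif in 1, that of Il6, and in 1.41%, and the cyclic AMP response element in 0 and in 1.55%. These counts describe the letters of the windows only.

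**Figure D2:**
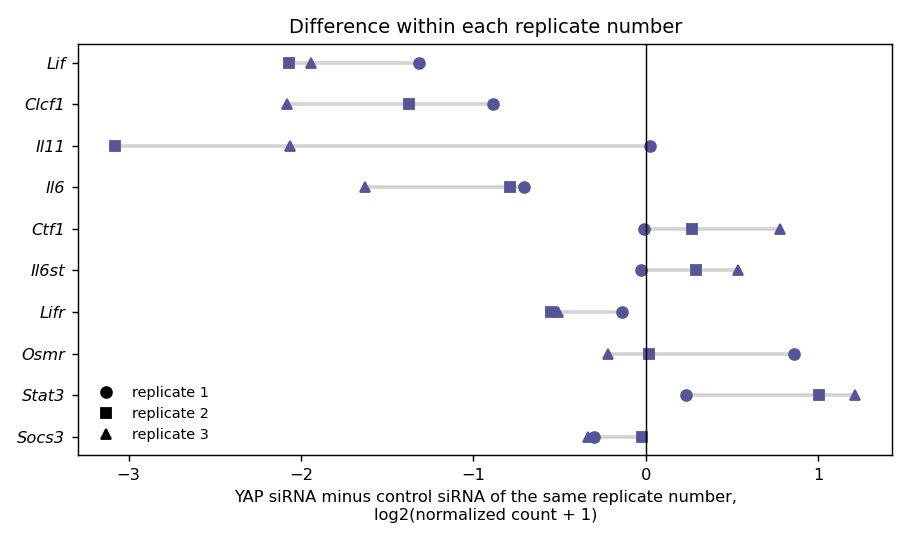
Difference between YAP siRNA and control siRNA within each replicate number, as log2(normalized count + 1), for each of the 10 genes; symbols are replicate numbers and grey lines join the 3 values. Lif, Clcf1, Il6, Lifr and Socs3 are below 0 in all 3 numbers and Stat3 above 0 in all 3, and Il11 is at 0.024 in replicate 1 and −3.08 in replicate 2.

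Within the replicate numbers, Lif differed by −1.31, −2.07 and −1.94 in numbers 1, 2 and 3. Clcf1 differed by −0.89, −1.37 and −2.08, and Stat3 by 0.23, 1.00 and 1.22. The difference was smallest in size in replicate 1 for 8 of the 10 genes. The exceptions were Osmr and Socs3: Osmr had its largest difference in replicate 1 (0.86) and Socs3 its smallest in replicate 2 (−0.019). Outside the 10, Ccnd1 and Pdgfrb also had their smallest difference in replicate 1, and Arid5a did not. The share over all genes was not counted, so this is not read as a trait of the 10. Replicate 1 was also where Yap1 was least reduced, with a difference of −2.34 against −3.32 in each of the other numbers. Whether the depth of the knockdown has a part in this was not tested.

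Groups did not overlap for 2 genes in the lower direction and 1 in the higher direction, and over all 12820 genes tested this held for 9.49% as lower and 9.47% as higher. Since the 10 genes were chosen with this comparison known, nothing is read from these counts, and calls in the fits are not counted for them. The median log2 fold change of the 9 genes fitted was −0.40, and over all genes tested it was 0.0094. It turned to 0.015 without YAP siRNA replicate 1.

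Levels of different genes were compared per kilobase of exon, with exon lengths from GENCODE M21. In the controls, the order from the highest was Il6st at 1139 ± 134 normalized counts per kilobase, Socs3 at 423 ± 101, Lifr at 390 ± 197, Stat3 at 383 ± 46.7, Clcf1 at 293 ± 49.3, Lif at 270 ± 91.3, Osmr at 187 ± 101, Il11 at 23.4 ± 16.3, Il6 at 6.35 ± 4.29 and Ctf1 at 2.07 ± 2.00 (SD, n = 3). Only 2 steps of this order were free of overlap between neighbours: that from Il6st to Socs3 and that from Osmr to Il11. The library values of each other pair of neighbours overlapped. So gp130 transcripts were the most abundant, the genes from Socs3 to Osmr lay within one broad band, and Il11, Il6 and Ctf1 were below it in every library. After YAP siRNA, Stat3 was at 685 ± 154, Clcf1 at 109 ± 31.9 and Lif at 75.5 ± 7.60 per kilobase. Lif and Clcf1 were then below Osmr, at 195 ± 59.3, although replicate 1 of Clcf1, at 144, was above replicate 1 of Osmr, at 128.

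**Figure D3:**
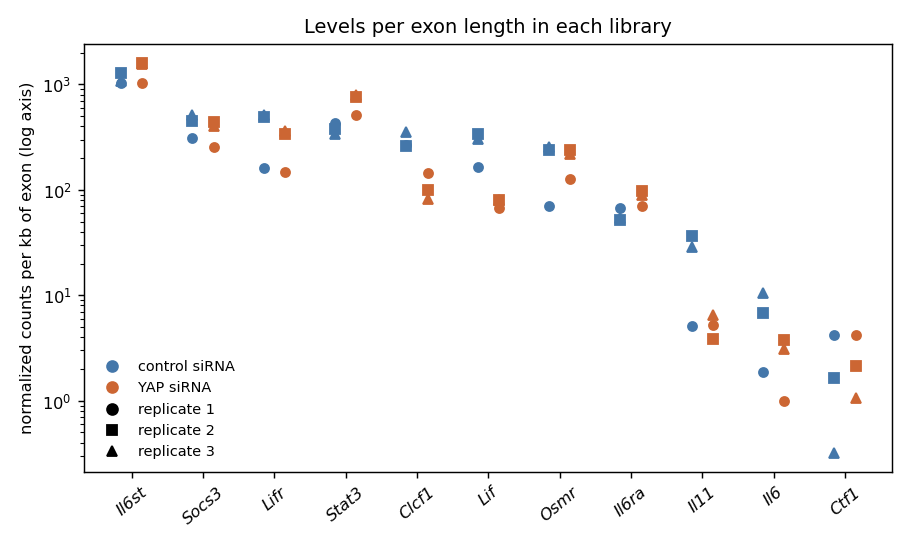
Normalized counts per kilobase of exon on a log axis for the 10 genes and for Il6ra, ordered by their control mean; each symbol is 1 library. Il6st is highest, and Il11, Il6 and Ctf1 lie below all others, with at most 36.3 per kilobase in any library.

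Among other ligands and receptors of the family, Il6ra, Il27ra, Cntf and Il11ra1 had a mean of at least 10 normalized counts, and none of these 4 passed in limma over all libraries, with or without the block. Il6ra, which encodes the receptor that IL-6 binds first, had 581, 447 and 466 normalized counts in the controls and 612, 846 and 775 after YAP siRNA, with all 3 above the controls (log2 fold change 0.58, adjusted p in limma 0.0550 blocked and 0.326 unblocked). With the block it passed in edgeR and DESeq2 (adjusted p 0.0400 and 0.0197). In limma with the block it passed without replicate 1 of both groups (adjusted p 6.8e-08), but not without replicate 2 (0.389), without replicate 3 (0.141) or without a mean-variance trend (0.173). Il27ra, a gp130 partner for interleukin 27, had 4.55, 21.0 and 18.4 against 25.2, 44.4 and 43.7, again without overlap (log2 fold change 1.495, blocked adjusted p 0.0521). The ligand gene Cntf, which is known as a product of Schwann cells, had a log2 fold change of −0.053 and lay between 17.1 and 26.3 normalized counts in all libraries. The receptor gene Il11ra1 had between 9.35 and 68.5, with replicate 1 highest in each group.

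Another 7 ligand and receptor genes were at or near 0. Osm, the oncostatin M gene, had 1 read, in control replicate 2, and Ctf2 was at 0 in all libraries. Cntfr, whose product binds CNTF, had 1, 2 and 13 reads in the controls and 0 in each YAP siRNA library. Ebi3 and Il31 were likewise read only in controls, with at most 5 reads in a library. Il27 had at most 2 reads in any library and Il31ra at most 2.

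Of 9 JAK kinase and STAT genes beside Stat3, 8 were tested. In limma with the block 0 rose and 0 fell, beside 8.32% and 8.96% of all genes. With the block 0 were also called in edgeR and DESeq2, and 0 had an unadjusted p under 0.05 in limma without it. Jak1, the main kinase on gp130, had 9267, 11593 and 10460.4 normalized counts in the controls and 9689, 10522 and 10496 after YAP siRNA, a log2 fold change of −0.024 (SE 0.130). Stat6, which mainly serves interleukin 4, had a log2 fold change of 0.11 (blocked adjusted p 0.453). Without replicate 1 of both groups Stat6 passed (0.0426 with the block), in a fit that called 5596 of all 12820 genes. Stat5b, which many cytokine receptors activate, had a log2 fold change of 0.18. The median of the 8 was 0.044, against 0.0094 over all genes tested, and the value for Stat3 was 0.82.

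Adaptors that lead from gp130 to RAS and PI3K were tested for 8 of 8 genes. Of these 2 rose and 0 fell, beside 8.32% and 8.96% of all genes. Gab1, a docking protein that gathers the phosphatase SHP2 and PI3K, had 1388, 1307 and 1256 normalized counts in the controls and 1673, 1771 and 1935 after YAP siRNA. No library of one group reached the other (log2 fold change 0.44, SE 0.130; adjusted p in limma 0.0281 blocked and 0.262 unblocked). Shc1, an adaptor between receptors and GRB2, had 2604, 897 and 1299 in the controls and 3151, 1690.4 and 2101 after YAP siRNA. Here replicate 1 was highest in each group, and the difference was above 0 in all 3 numbers (log2 fold change 0.63, SE 0.427; adjusted p in limma 0.0159 blocked and 0.632 unblocked). Without replicate 2 of both groups neither passed (blocked adjusted p 0.216 for Gab1 and 0.170 for Shc1), and without replicate 3 Gab1 did not (0.176).

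Among inhibitors of JAK and STAT signalling beside Socs3, 0 rose and 2 fell of 14 tested, beside 8.32% and 8.96% of all genes. Socs1, which encodes a direct inhibitor of JAK kinases, had 200.3, 279 and 431 normalized counts in the controls and 123, 122 and 155 after YAP siRNA. All 3 YAP siRNA libraries were below all controls (303 ± 117 against 133 ± 19.0, SD, n = 3; log2 fold change −1.12, adjusted p in limma 0.0103 blocked and 0.261 unblocked). Pias4, a SUMO ligase gene named for its inhibition of activated STATs, had 1269, 1729 and 1823 in the controls and 928, 1250.4 and 1139 after YAP siRNA, also without overlap (log2 fold change −0.53, adjusted p in limma 0.0136 blocked and 0.361 unblocked). Neither passed without replicate 2 of both groups (blocked adjusted p 0.0914 for Socs1 and 0.120 for Pias4), nor Pias4 without replicate 3 (0.0724). The median of the list was −0.15.

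**Figure D4:**
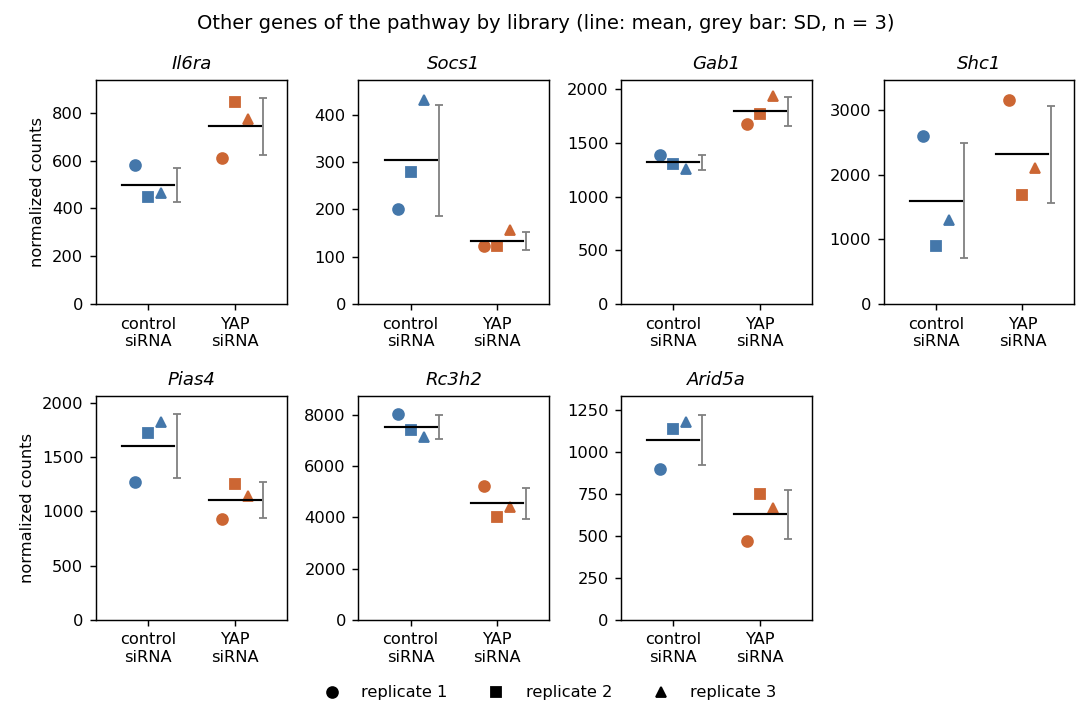
Normalized counts (vertical axes from 0) by library of 7 genes of the pathway that are not among the 10, drawn with the same colours, symbols, means and SD (n = 3). Socs1, Pias4, Rc3h2 and Arid5a are lower in all YAP siRNA libraries than in any control and Il6ra and Gab1 are higher, whereas the groups of Shc1 overlap.

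Genes often named as STAT3 targets went both ways. Of 32 listed, 26 were tested, and 4 rose and 1 fell, beside 8.32% and 8.96% of all genes. The median log2 fold change of the 26 was −0.00072, beside 0.0094 over all genes tested. Klf4, a transcription factor gene that LIF and STAT3 sustain in mouse embryonic stem cells, had 584, 349 and 520 normalized counts in the controls and 820, 850 and 942 after YAP siRNA (log2 fold change 0.88, adjusted p in limma 0.0108 blocked and 0.232 unblocked). Ccnd1, the cyclin D1 gene, fell from 31551, 40638 and 45035 to 25875, 19439 and 18899 (log2 fold change −0.87, adjusted p in limma 0.0111 blocked and 0.194 unblocked). Both genes had groups that do not overlap. The kinase gene Pim1 rose by 0.75 and the metallothionein genes Mt1 and Mt2, which bind metals, by 0.41 and 0.52 on the log2 scale. None of these 5 passed without replicate 2 of both groups (blocked adjusted p between 0.0850 and 0.276), and Pim1 did not without replicate 3 (0.172).

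Without replicate 1 of both groups the same list gave 8 genes higher and 7 lower with the block. Over all 12820 genes tested, that fit called 2804 higher and 2792 lower. Of the acute-phase genes of the list, Serpina3n had 175, 427 and 400.4 normalized counts in the controls and 251, 434 and 451 after YAP siRNA. Others were low, and Lcn2 and Lrg1 were at 0 in all libraries. Saa3 and Hp were read only in control replicates 2 and 3, the deepest libraries, where Hp had 11.7 and 17.5 normalized counts.

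Proteins that control the decay of cytokine mRNA were tested for 10 of 10 genes. Of these 0 rose and 2 fell, beside 8.32% and 8.96% of all genes. Rc3h2, which encodes roquin-2, a protein that marks cytokine mRNAs for decay, had 8055, 7425 and 7135 normalized counts in the controls and 5220, 4031 and 4423 after YAP siRNA (log2 fold change −0.73, SE 0.141; adjusted p in limma 0.00237 blocked and 0.165 unblocked). Arid5a, whose product is known to stabilise Il6 mRNA, had 899.8, 1139 and 1180.0 in the controls and 469, 752 and 666 after YAP siRNA (log2 fold change −0.79, SE 0.229; adjusted p in limma 0.00597 blocked and 0.261 unblocked). Neither gene overlapped between the groups, and both passed without replicate 2 of both groups (blocked adjusted p 0.0418 for each).

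Interferon response genes were followed because transfected RNA can start that response. Of 20 listed, 18 were tested, and 2 rose and 2 fell, beside 8.32% and 8.96% of all genes. Irgm1, a GTPase gene, and Ifit2, an antiviral gene, rose by 0.64 and 0.58 on the log2 scale, while Usp18 and Ifi44 fell, with log2 fold changes of −1.86 and −1.84. Usp18, a brake on the interferon receptor, had 21.2, 178 and 205 normalized counts in the controls and 8.41, 52.5 and 33.2 after YAP siRNA, so that its replicate 1 was lowest in each group. Ifi44 was at 6.07 in control replicate 1 and at 355 and 314 in the others. Without replicate 2 of both groups Irgm1 passed (blocked adjusted p 0.0411) and Ifit2, Usp18 and Ifi44 did not (0.0698, 0.111 and 0.295), and without replicate 3 Usp18 and Ifi44 did not (0.0644 and 0.0675). Without replicate 1 of both groups 4 were higher and 9 lower with the block, beside 2804 higher and 2792 lower of all 12820 genes.

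**Figure D5:**
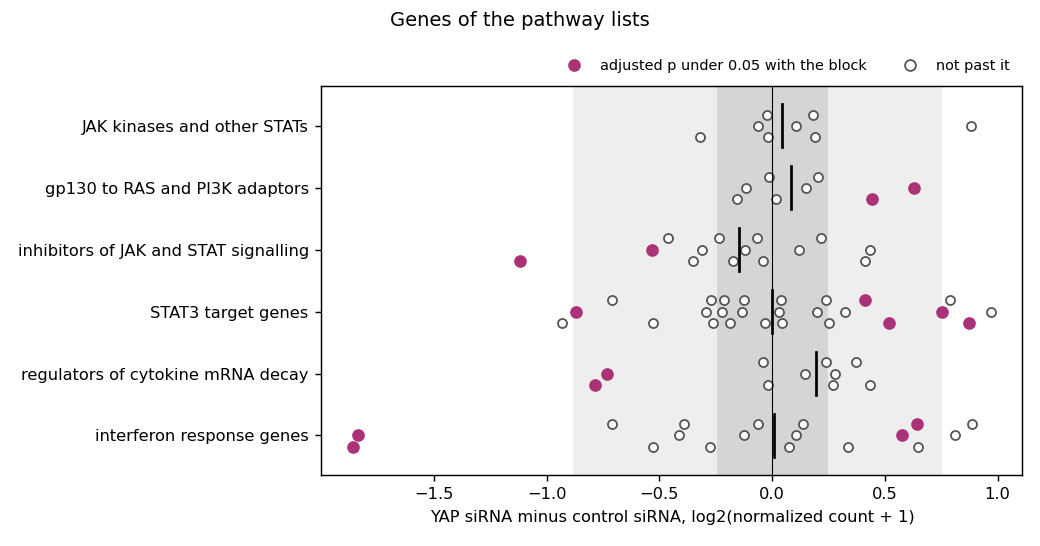
Log2 fold change (YAP siRNA minus control, horizontal axis) of each tested gene in 6 pathway lists; filled points passed with the replicate block, black bars are list medians, and the grey bands run from the 25th to the 75th and from the 5th to the 95th percentile of all 12820 genes. Medians of these 6 lists lie between −0.15 and 0.19, inside the inner band; the other family ligands and receptors are not drawn and are given gene by gene in the text.

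The genes whose pattern over the 6 libraries was most like that of Lif were sought among 11225 genes with a mean of at least 50 normalized counts. The 5 with the highest Pearson correlation of log2 values were Padi2 (0.997), Limd1 (0.996), Brd2 (0.995), 1810013L24Rik (0.994) and Krt18 (0.994). Padi2 encodes an enzyme that turns arginine into citrulline, Limd1 a LIM protein that binds LATS kinases, Brd2 a bromodomain protein that reads acetylated histones and Krt18 a keratin of simple epithelia. Krt18 had 184, 338 and 373 normalized counts in the controls and 49.3, 59.5 and 60.3 after YAP siRNA, and so shared with Lif the low control replicate 1 and the tight YAP siRNA libraries. The log2 fold change was −1.25 for Padi2, −0.28 for Limd1, −0.49 for Brd2 and −2.32 for Krt18. These correlations rest on 6 libraries that share the same 2 groups, and are a description.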

How the data were processed

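RNA-seq of 6 libraries was used. The authors deposited a signal per gene and library: reads counted in the gene, scaled by that library's size factor. The submitters' processing notes name mm9, DESeq 1.14.0, HTSeq 0.6.1 and TopHat2 2.0.9; annotation, strand setting, filters and the handling of shared reads are unstated. In each library 100% of values above 0 came out as whole reads (tolerance 0.01), so reads were recovered. Replicates of a group differed beyond sampling noise (chi-square per degree of freedom between 8.04 and 267).

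Here log2(value + 1) was fitted with limma 3.58.1 in R 4.3.3 (mean-variance trend, two-sided, Benjamini-Hochberg over all genes with a mean of at least 10, threshold 0.05), without covariates. Deviations of same-numbered libraries from their group means correlated across genes at 0.788, 0.705 and 0.532, which was taken as pairing by number. This comes from the data, not from a label. Replicate 1 correlated with the other numbers at between −0.751 and −0.620. Deviations from a group mean cancel out within each gene, so these negative values follow from the positive one and add nothing to it. Control 2 with YAP siRNA 3 gave 0.552, and control 3 with YAP siRNA 2 gave 0.516. The values thus set replicate 1 apart but hardly separate numbers 2 and 3. The fit with the number as a block stands beside the other. Alternatives were pseudocounts, filters, scaling, edgeR 4.0.16, DESeq2 1.42.0 and left-out libraries. Fits were checked on simulated counts made with the pairing by number built in, so that check cannot show whether the block suits these data. No set test was run.

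The 10 genes and all lists were chosen with earlier results of these data known. Genes named are the 10, Yap1, in each list the genes that passed with the block (at most 6, or the 2 most abundant where none passed), the other family ligands and receptors, and the 5 most like Lif; Stat5a, Stat5b, the acute-phase genes and the marker genes beyond the most abundant were named after their values were seen. Some listed genes are not reported here and enter no list count or median; the family list, shortened in this way, is given gene by gene, without a median.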

Additional observations from a re-analysis of the deposited data

How the results depend on the processing

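Settings without the block that kept all libraries called 0 genes in limma and edgeR, and 722 in DESeq2. With the replicate block the call counts were 2216 in limma, 30 in limma without a mean-variance trend, 2479 in edgeR and 2490 in DESeq2. Yap1 was at −3.00, −2.99 and −3.00 in limma, edgeR and DESeq2 with the replicate block, and at −2.94 in DESeq2 without it. Counts of called genes with the replicate block, in limma, edgeR and DESeq2, were 0, 1 and 1 for the 4 other family ligands and receptors, 2, 2 and 2 for adaptors, 2, 3 and 3 for inhibitors, 5, 6 and 5 for STAT3 targets, 2, 2 and 2 for mRNA decay and 4, 5 and 5 for interferon genes. In DESeq2 without the block they were 1 for adaptors, 1 for inhibitors, 2 for STAT3 targets, 1 for mRNA decay and 1 for interferon genes. Without a trend, all 15 list genes named as called lost their call (limma adjusted p between 0.0798 and 0.183 with the block).

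Leaving out single libraries without the block gave between 0 and 497 genes in all, and 0 to 2 for STAT3 targets, with Yap1 between −3.28 and −2.79. With the replicate block, leaving out replicate 1, 2 or 3 of both groups gave 5596, 300 and 1128 genes in all, 2, 0 and 0 for the family list, 2, 0 and 0 for JAK and STAT genes, 4, 0 and 1 for adaptors, 6, 0 and 1 for inhibitors, 15, 0 and 4 for STAT3 targets, 6, 2 and 3 for mRNA decay and 13, 1 and 3 for interferon genes, with Yap1 between −3.32 and −2.83. Without replicate 1 of both groups and without the block, a setting chosen after seeing the data, they were 4018 in all, 1, 4, 3, 9, 5 and 10 in the order family list, adaptors, inhibitors, STAT3 targets, mRNA decay and interferon genes, and Yap1 was at −3.32. These fits have few degrees of freedom of their own.

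Over all settings Lif stayed between −2.09 and −1.58, Clcf1 between −1.73 and −1.13, Il11 between −2.57 and −1.02, Il6 between −1.69 and −0.56, Stat3 between 0.62 and 1.11 and Il6st between 0.13 and 0.48. Lifr (−0.94 to 0.015), Osmr (−0.38 to 0.54) and Socs3 (−0.42 to 0.026) had both signs. The median of the 9 fitted genes turned to 0.015 without YAP siRNA replicate 1; the cause was not tested. Depth limits Il6 and Ctf1 most.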
